A study of Mus musculus with 26 samples.

Results

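Amino acid and peptide transporters were followed in the proximal small intestine of mice after inducible deletion of a gene in the intestinal epithelium. The transporters were taken by gene symbol alone, as every gene of the count table named Slc1a, Slc3a, Slc6a, Slc7a, Slc15a, Slc36a, Slc38a or Slc43a followed by a number, which gave 66 of 55487 genes. Pieces of whole proximal small intestine were sequenced from mice killed 3 or 7 days after the last of 5 tamoxifen injections, with 7 knockout and 7 control mice at 3 days and 6 of each at 7 days. The knockout mice (labelled tg) carried fl/fl alleles of the deleted gene and the Villin-creERT2 transgene, in which the villin promoter drives a tamoxifen-inducible Cre recombinase in epithelial cells of the gut. The control mice (labelled wt) had the same fl/fl alleles and also received tamoxifen. All were 8 to 12 weeks old and on the C57BL/6N background. Each library came from 1 mouse and from tissue with all layers of the gut wall, so that fewer cells of a type and less RNA per cell cannot be told apart.

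Enterocytes take up digested protein across the brush border as single amino acids and as short peptides, and release amino acids to the blood across the basolateral membrane through a different set of carriers. Many light chains of the SLC7 family reach the membrane only when bound to a heavy chain, which is Slc3a2 (4F2hc, CD98) for the basolateral and widely expressed exchangers and Slc3a1 (rBAT) for the cystine transporter of the brush border. A further set, among them the cystine and glutamate exchanger Slc7a11, is known to be induced by the transcription factor ATF4 in the integrated stress response, which cells start when amino acids are scarce or mitochondria fail. The 66 transporters were therefore described by role, with 9 stress-induced, 7 brush border, 5 basolateral and 6 lysosomal transporters, 8 further members of the SLC38 family, 4 further glutamate transporters of the SLC1 family, 15 neurotransmitter, creatine and osmolyte carriers of the SLC6 family and 12 others.

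The DNA element that ATF4 binds together with C/EBP proteins was looked for as TGATGNAA, on both strands, from 250 bases before to 50 bases after the annotated starts of the RefSeq genes (GRCm38.p6). Of 27025 genes with such a sequence, 4.51% held the letters at least once. Of the stress-induced transporters, 6 had a sequence and 2 held the letters, Slc7a11 and Slc1a4, and Slc1a5, Slc7a3 and Slc7a5 had no entry. Of the 7 brush border transporters 0 held them, and of the 5 basolateral transporters 1 did, Slc7a7. Over all transporters 5 of 47 held them (10.6%), the other two being Slc15a5 and Slc6a21, which made 2 of 6 among the transporters with no named role. The stretches of Slc7a11 (chr3:50443614-50443863, minus strand, the 250 bases before the start) and of Slc1a4 (chr11:20332704-20332773, minus strand, 60 bases before to 10 bases after the start) are shown because both genes were higher in knockout mice on both days and because Slc7a11 holds a pair of matches. Capitals mark the matches.
Slc7a11: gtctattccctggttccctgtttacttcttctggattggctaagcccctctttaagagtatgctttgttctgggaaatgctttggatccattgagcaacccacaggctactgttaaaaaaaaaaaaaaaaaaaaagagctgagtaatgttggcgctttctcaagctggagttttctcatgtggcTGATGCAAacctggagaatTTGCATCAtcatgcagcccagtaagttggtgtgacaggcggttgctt
Slc1a4: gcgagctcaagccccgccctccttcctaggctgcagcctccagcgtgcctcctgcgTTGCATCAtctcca
In Slc7a11 the first match began 66 bases before the start and read along the gene, and the second began 47 bases before it on the opposite strand, so that the pair faced each other. In Slc1a4 the single match lay on the opposite strand and spanned the start. These are matches of letters, and binding was not measured.

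Levels are given as CPM, the count of a gene scaled to a common library total with TMM factors, and a count of 3 in 1 library corresponded to between 0.453 and 0.766 CPM. Library totals ranged from 3720167 to 6338015 counts. The 8 enterocyte markers were detected in all groups, and their summed level was 3498 to 5334 CPM in 7-day knockouts against 7974 to 16293 CPM in 7-day controls. The summed stem and proliferation markers were 144 to 223 CPM against 687 to 939 CPM, and the summed lymphocyte markers 242 to 461 CPM against 562 to 1263 CPM. At 3 days these 3 sums overlapped between the genotypes. Markers of pancreatic acinar cells exceeded 10000 summed CPM in knockout replicate 2 and control replicate 2 of 3 days and in knockout replicate 4 of 7 days, and stomach markers exceeded 500 summed CPM in knockout replicate 1 (567) and control replicate 5 (5173) of 3 days and in control replicate 2 of 7 days (5531). Enterocyte markers were at their lowest in 2 of these, with 451 CPM in knockout replicate 1 and 646 CPM in control replicate 5 of 3 days. Counts of changed transporters at 3 days and between controls, and of stress-induced ones at 7 days, are given with and without these 6 libraries.

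At 3 days after tamoxifen the transporters that passed the test were all of the stress-induced list. Of 49 transporters tested at 3 days, 5 rose and 0 fell at an adjusted p under 0.05, where 1.11% of the 20760 genes tested rose and 0.323% fell (1.43% in either direction). All 5 belonged to the stress-induced list, of which 9 of 9 were tested. All 9 had a positive log2 fold change, with a median of 0.89 beside -0.03 over all genes. The lists were drawn up with earlier results of these data known, so counts within a list are descriptions. At an unadjusted p under 0.05, 10 transporters were higher and 3 lower, and DESeq2 called 6 higher and 0 lower.

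Slc7a11 (chr3:49892526-50443614), the light chain that imports cystine in exchange for glutamate, had the largest rise of the transporters at 3 days. It reached 6.59 to 51.9 CPM (median 29.6) in 3-day knockouts and 0.233 to 3.17 CPM (median 0.956) in controls. All 7 knockouts lay above all 7 controls, the lowest knockout being replicate 1, and the log2 fold change was 4.22 ± 0.47 (SE, adjusted p = 8.72e-05). Slc7a3 (chrX:101079210-101086020), a carrier of arginine and other cationic amino acids, reached 4.33 to 19.6 CPM (median 15.2) against 0 to 3.34 CPM (median 1.06). The groups did not overlap, and the log2 fold change was 3.49 ± 0.47 (adjusted p = 0.000673).

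The other 3 had higher control levels and smaller folds. Slc7a5 (LAT1, chr8:121881150-121907694), the exchanger of large neutral amino acids, reached 23.7 to 108 CPM (median 63.2) in 3-day knockouts against 12.5 to 21.2 CPM (median 16.7) in controls, a log2 fold change of 1.88 ± 0.27 (adjusted p = 0.00126). Slc1a4 (chr11:20302180-20332713), an exchanger of alanine, serine and cysteine, reached 15.2 to 23.3 CPM (median 17) against 2.87 to 10.5 CPM (median 5.58), a log2 fold change of 1.60 ± 0.24 (adjusted p = 0.00142). Both were higher in every knockout than in every control. For Slc7a1, the widely expressed cationic amino acid carrier, the range was 111 to 221 CPM (median 200) against 74.5 to 117 CPM (median 105). Its groups overlapped only through knockout replicate 1, and the log2 fold change was 0.89 ± 0.15 (adjusted p = 0.00442). This call was lost with the replicate block (adjusted p = 0.0595). In all, 4 transporters did not overlap between the genotypes at 3 days with the knockouts higher and 0 with them lower, where 0.66% and 0.275% of all genes did so, or 0.934% in either direction.

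The remaining 4 stress-induced genes did not pass the test at 3 days. Their log2 fold changes were 0.77 ± 0.25 for the glycine transporter Slc6a9 (adjusted p = 0.151), 0.42 ± 0.17 for the glutamine transporter Slc1a5 (0.269), 0.41 ± 0.13 for the glutamine and alanine carrier Slc38a2 (0.141) and 0.34 ± 0.22 for the heavy chain Slc3a2 (0.558). Without the 4 libraries of 3 days that were high in acinar or stomach markers, 8 transporters rose and 1 fell. The 8 were all of the stress-induced list except Slc3a2, and the 1 that fell was the basolateral carrier Slc43a2 (log2 fold change -0.67, adjusted p = 0.0276). Leaving out control replicate 5 of 3 days alone gave an adjusted p of 0.0184 for Slc6a9 and 0.017 for Slc1a5.

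At 7 days after tamoxifen all 9 stress-induced transporters rose, with a median log2 fold change of 2.58 beside -0.02 over all genes. Over all transporters, 15 of 50 tested rose (30%) and 18 fell (36%), where 19.7% of the 20259 genes tested rose and 18.8% fell (38.5% in either direction). The 15 risen genes comprised the 9 stress-induced transporters, 3 lysosomal ones, Slc38a1, Slc43a3 and Slc7a2. The 5 genes called at 3 days were all called higher again at 7 days.

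Slc7a11 was at 597 to 841 CPM (median 701) in 7-day knockouts, and at 0 to 2.04 CPM (median 0.654) in controls. All 6 knockouts lay above all controls of the day and above all 3-day knockouts. The log2 fold change was 9.79 ± 0.34 (adjusted p = 3.31e-13), and rests on 23 counts in the 6 controls together against 21624 in the knockouts. Slc7a3 reached 37.3 to 49.6 CPM (median 43.4) against 0 to 1.22 CPM (median 0.52). Its log2 fold change was 6.19 ± 0.26 (adjusted p = 2.84e-12), on 17 counts in the controls, and the groups did not overlap.

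The neutral amino acid carriers Slc1a4 and Slc6a9 followed. Slc1a4 reached 49.8 to 69 CPM (median 63) in 7-day knockouts against 2.4 to 8.77 CPM (median 4.61), a log2 fold change of 3.68 ± 0.19 (adjusted p = 5.46e-11). Slc6a9 reached 21.6 to 28.8 CPM (median 23.1) against 2.29 to 3.97 CPM (median 2.84), a log2 fold change of 3.06 ± 0.15 (adjusted p = 2.72e-11). Neither overlapped between the genotypes, and both were higher in every 7-day than in every 3-day knockout. Exons of Slc6a9 overlap those of B4galt2, Ccdc24 and Gm17114, all on the other strand. The counting was not stated to use the strand, and Slc6a9 had fractional counts, such as 41.17 in knockout replicate 1 of 3 days. Its values may therefore hold shares of reads from these genes.

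Slc7a5 behaved differently from these. It reached 34.3 to 56.8 CPM (median 49.7) in 7-day knockouts against 4.63 to 9.89 CPM (median 8.02), a log2 fold change of 2.58 ± 0.17 (adjusted p = 1.18e-09). The 7-day knockouts overlapped the 3-day knockouts, and the control level itself was lower at 7 than at 3 days (log2 fold change -1.05 ± 0.18, adjusted p = 0.000251). For Slc38a2 the range was 289 to 422 CPM (median 357) against 89 to 127 CPM (median 110), a log2 fold change of 1.68 ± 0.12 (adjusted p = 1.92e-09). Slc7a1 reached 191 to 293 CPM (median 230) against 67.5 to 95.7 CPM (median 90.9), a log2 fold change of 1.40 ± 0.11 (adjusted p = 1.59e-08). The groups of these genes did not overlap.

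The smallest rises were those of Slc1a5, at 70.7 to 93.9 CPM (median 89.9) against 43.9 to 64.1 CPM (median 48.1), and of Slc3a2, at 352 to 476 CPM (median 424) against 173 to 398 CPM (median 257). The log2 fold changes were 0.79 ± 0.11 (adjusted p = 7.96e-06) and 0.60 ± 0.17 (adjusted p = 0.00994). Slc1a5 was higher in every knockout than in every control, whereas Slc3a2 overlapped. Thus 8 of the 9 did not overlap at 7 days with the knockouts higher, and 12 of all transporters did so, where 11.8% of all genes tested did. Without the 2 libraries of 7 days high in acinar or stomach markers, 9 of 9 still rose. Slc1a5 was lower in 7-day than in 3-day controls (edgeR log2 fold change -0.64, adjusted p = 0.00942). Its 7-day knockouts overlapped the 3-day controls, which were at 58.3 to 141 CPM. Slc3a2 was higher in 7-day than in 3-day controls (edgeR log2 fold change 1.31, adjusted p = 0.000281).

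**Figure D1:**
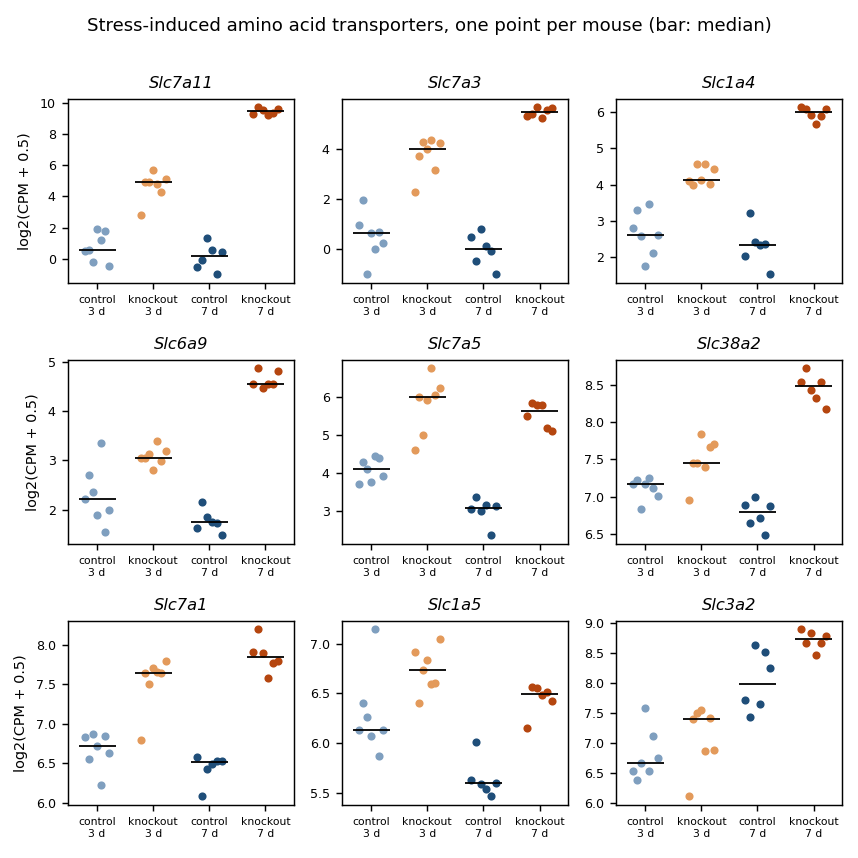
Level of each stress-induced transporter in every mouse on a log2 scale of CPM plus 0.5, with 1 panel per gene and the groups control and knockout of 3 and 7 days along the x axis (7, 7, 6 and 6 mice). Points are mice and bars are group medians. Slc7a11 rises from a median of 0.654 CPM in 7-day controls to 701 CPM in 7-day knockouts, and the 3-day knockouts lie between.

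Genes of the same response outside the transporters gave a reference. Atf4 itself was at 400 to 902 CPM (median 651) in 3-day knockouts against 203 to 268 CPM (median 247), and at 855 to 1136 CPM (median 1003) in 7-day knockouts against 236 to 311 CPM (median 272). Its log2 fold changes were 1.44 ± 0.15 and 1.87 ± 0.11, and the groups did not overlap on either day. Asns, which makes asparagine and is a known ATF4 target, had log2 fold changes of 2.23 ± 0.20 and 3.16 ± 0.12. Of 7 such reference genes, 7 rose at each day, where 1.11% of all genes tested rose at 3 days and 19.7% at 7 days.

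The knockout effect was then compared between the days in 1 model of all 26 mice. Of 47 transporters tested, the effect was higher at 7 than at 3 days for 10 and lower for 11, where 8.64% and 9.74% of the 19604 genes tested were. Of the stress-induced list the effect grew for 6 of 9, by 5.60 ± 0.69 on the log2 scale for Slc7a11 (adjusted p = 9.93e-07), 2.73 ± 0.68 for Slc7a3 (0.00477), 2.30 ± 0.30 for Slc6a9 (2.94e-06), 2.09 ± 0.33 for Slc1a4 (3.96e-05), 1.28 ± 0.17 for Slc38a2 (3.6e-06) and 0.53 ± 0.19 for Slc7a1 (0.0481). For Slc7a5 (0.72 ± 0.35, adjusted p = 0.165), Slc1a5 (0.39 ± 0.21, 0.228) and Slc3a2 (0.28 ± 0.31, 0.607) the difference between the days did not pass. The call for Slc7a1 was lost under 25 of 33 other settings, and the calls of the other 5 genes were kept under all 33.

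The brush border transporters fell at 7 days. At 3 days 0 of the 6 tested passed the test, with a median log2 fold change of -0.08. edgeR gave 1 of them at an unadjusted p under 0.05, Slc36a1, which was lower, and DESeq2 called 0. At 7 days 6 of 6 fell, with a median of -2.13, where 18.8% of all genes tested fell. The seventh member, the amino acid carrier Slc6a14, had 0 counts in all 26 libraries.

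Slc15a1 (PEPT1, chr14:121459621-121505252), which takes up short peptides with protons, was at 9.7 to 25.8 CPM (median 20.7) in 7-day knockouts and at 92.6 to 312 CPM (median 138) in controls. The knockouts lay below all controls, and the log2 fold change was -3.01 ± 0.28 (adjusted p = 7.69e-08). Slc1a1 (EAAT3), which takes up glutamate and aspartate, was at 1.64 to 5.46 CPM (median 2.55) against 13.7 to 31.4 CPM (median 24.9), a log2 fold change of -3.09 ± 0.26 (adjusted p = 2.18e-08). The highest knockout was replicate 4, which was also the one high in acinar markers, and the groups did not overlap. Exons of Slc1a1 overlap 4430402I18Rik on the other strand.

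Slc36a1, the proton-coupled carrier of small neutral amino acids, was at 12.3 to 19.1 CPM (median 14.1) against 37.9 to 115 CPM (median 97.2), a log2 fold change of -2.54 ± 0.22 (adjusted p = 4.56e-08). Slc6a19 (B0AT1, chr13:73679745-73704865), the main brush border carrier of neutral amino acids, was at 58 to 159 CPM (median 138) against 301 to 561 CPM (median 416), a log2 fold change of -1.73 ± 0.21 (adjusted p = 2.33e-06). Neither overlapped, although knockout replicate 2 stood low for Slc6a19. The cystine and cationic amino acid transporter is made of the light chain Slc7a9 and the heavy chain Slc3a1. Slc7a9 was at 48.7 to 84.9 CPM (median 64.1) against 105 to 230 CPM (median 155), a log2 fold change of -1.34 ± 0.17 (adjusted p = 5.01e-06), and Slc3a1 at 14.6 to 27.2 CPM (median 19.4) against 22.8 to 56.1 CPM (median 32.2), a log2 fold change of -0.83 ± 0.21 (adjusted p = 0.00361). Only Slc3a1 overlapped between the genotypes, so that 5 brush border genes and 15 transporters in all lay below every control, where 10.5% of all genes did (22.4% lay apart in either direction). In the fit of all 26 libraries the call for Slc3a1 was lost (adjusted p = 0.0874), and its exons overlap Prepl on the other strand. Enterocyte markers were lower in the same mice (7 of 8 called lower at 7 days), and their part in these results was not tested.

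The basolateral carriers split. Slc7a8 (LAT2, chr14:54722209-54781946), a light chain that exports neutral amino acids with Slc3a2, was at 3.81 to 10.1 CPM (median 4.18) in 7-day knockouts against 69.9 to 202 CPM (median 148) in controls, a log2 fold change of -4.75 ± 0.27 (adjusted p = 1.63e-10). Slc43a2 (LAT4, chr11:75531694-75577575), which lets branched-chain amino acids, methionine and phenylalanine out of the cell, was at 20.2 to 35.8 CPM (median 27.4) against 405 to 688 CPM (median 473), a log2 fold change of -4.25 ± 0.17 (adjusted p = 2.17e-12). Both groups were fully apart, and knockout replicate 4 was again the highest for Slc7a8. The exporter of cationic amino acids Slc7a7, also a partner of Slc3a2, was at 34.6 to 42.2 CPM (median 39.3) against 83.4 to 186 CPM (median 120), a log2 fold change of -1.73 ± 0.16 (adjusted p = 1.07e-07). By contrast Slc7a6 and Slc43a1 overlapped and did not pass, with log2 fold changes of 0.29 ± 0.23 (adjusted p = 0.354) and 0.16 ± 0.30 (adjusted p = 0.725). At 3 days 0 of the 5 passed by edgeR or DESeq2, and 0 had an unadjusted p under 0.05. Slc7a7 overlaps Oxa1l and Slc43a2 overlaps Gm45606 on the other strand.

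**Figure D2:**
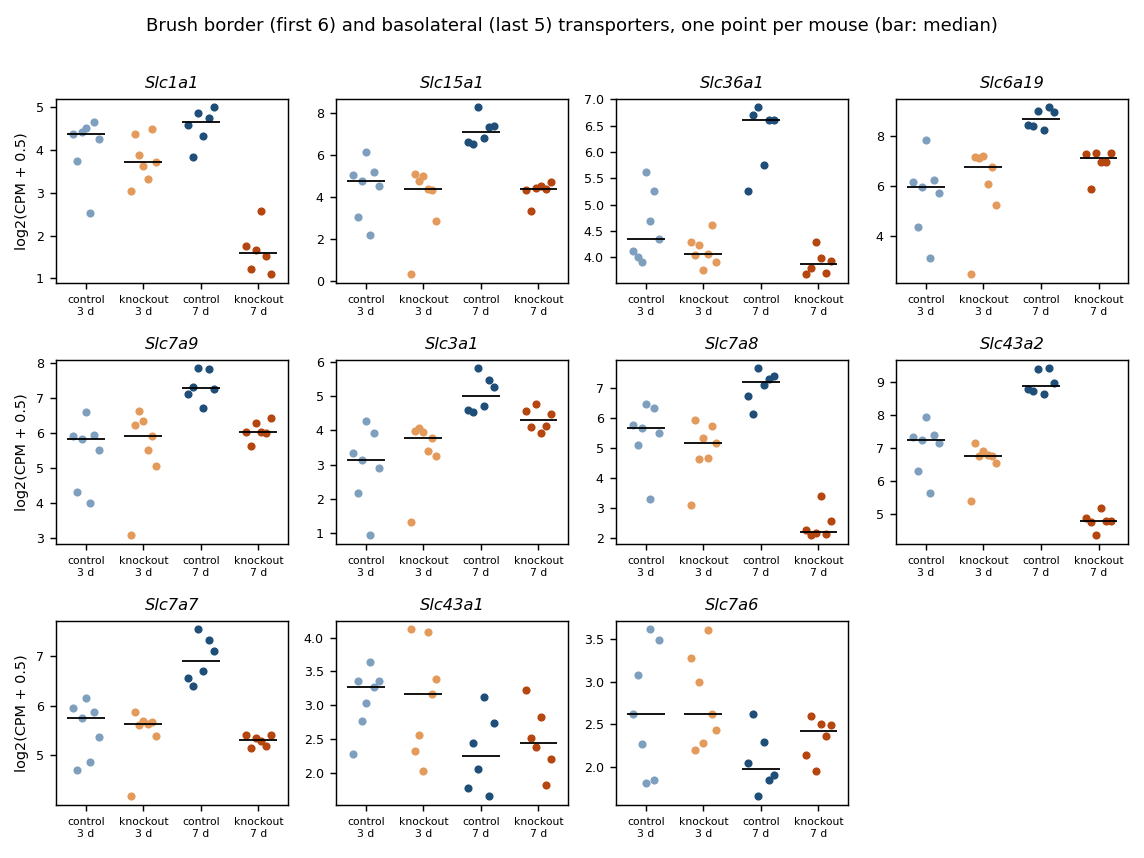
Level of 6 brush border and 5 basolateral transporters in every mouse on a log2 scale of CPM plus 0.5, with the 4 groups along the x axis. Points are mice and bars are group medians. For Slc15a1 and Slc7a9 the 7-day knockouts sit at the height of the 3-day mice and the 7-day controls above them. For Slc6a19 and Slc3a1 the medians of the 7-day knockouts lie between those of the 3-day mice and of the 7-day controls. Slc1a1, Slc36a1, Slc7a7, Slc7a8 and Slc43a2 have their lowest medians in the 7-day knockouts.

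The controls differed between the days, and this bears on the reading of the absorptive genes and of some stress-induced ones. Of 48 transporters tested between the controls of 7 and of 3 days, 13 were higher and 13 lower at 7 days, where 19.7% and 16.3% of the 20646 genes tested were. Of the brush border list 5 of 6 were higher in 7-day controls, with a median log2 fold change of 1.88, and 4 did not overlap, where 9.24% of all genes lay higher without overlap and 7.05% lower. The changes were 2.56 ± 0.50 for Slc6a19 (adjusted p = 0.000799), 2.50 ± 0.47 for Slc15a1 (0.000532), 1.98 ± 0.37 for Slc3a1 (0.000535), 1.78 ± 0.33 for Slc7a9 (0.000541) and 1.77 ± 0.31 for Slc36a1 (0.000307), while Slc1a1 (0.47 ± 0.26, adjusted p = 0.175) did not pass. Of the basolateral list 3 of 5 were higher and 1 lower in 7-day controls. The changes were 1.92 for Slc43a2 (adjusted p = 8.29e-05), 1.49 for Slc7a8 (0.00288), 1.45 for Slc7a7 (0.000208) and -0.75 for Slc43a1 (0.0438). Slc7a6 did not pass (-0.73, adjusted p = 0.0982). Of the stress-induced list 1 of 9 was higher, Slc3a2, and 3 were lower, Slc7a5, Slc1a5 and Slc38a2. Without the libraries high in acinar or stomach markers, 14 transporters were higher and 9 lower in 7-day controls. Slc43a1 and Slc38a2 were then no longer called lower. Over all other settings the call for Slc43a1 was lost under 11 and kept under 9. The call for Slc38a2 was lost under 10 and kept under 10. Of all transporters lower in 7-day knockouts, 12 of 18 were also higher in 7-day than in 3-day controls. Of the 15 higher in 7-day knockouts, 6 were lower in 7-day than in 3-day controls. Both comparisons use the same 7-day controls, so the calls are not independent, and the share over all genes was not taken. No label ties the mice of the 2 days to a common run, and day and batch cannot be told apart. All 8 enterocyte markers were higher in 7-day controls as well, and their part was not tested.

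The level in the 7-day knockouts was therefore set beside the 3-day mice of both genotypes. For Slc15a1 the median of the 7-day knockouts, 20.7 CPM, lay beside 26.5 CPM in 3-day controls and 20.4 CPM in 3-day knockouts. For Slc7a9 the medians were 64.1, 56.7 and 60 CPM, and for Slc36a1 14.1, 19.8 and 16.2 CPM. The 7-day knockouts had the higher median for Slc6a19, at 138 CPM beside 62.4 and 109 CPM, and for Slc3a1, at 19.4 CPM beside 8.25 and 13.1 CPM. The 7-day knockouts overlapped the 3-day controls for all 6 brush border genes detected. Slc1a1 alone of these lay below all 3-day knockouts, with a highest value of 5.46 CPM against a lowest of 7.71 CPM. Slc43a2 lay below every mouse of the other 3 groups, its highest 7-day knockout being at 35.8 CPM and the lowest 3-day mouse at 42.3 CPM. For Slc7a7 the 7-day knockouts, at 34.6 to 42.2 CPM, overlapped the 3-day controls (25.3 to 70.8 CPM) and the 3-day knockouts (17.5 to 57.6 CPM). Slc7a8 overlapped both 3-day groups only through knockout replicate 4 of 7 days, at 10.1 CPM, the lowest 3-day mouse being at 8.09 CPM.

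The test of the change of the knockout effect divided the genes differently. The effect was lower at 7 than at 3 days for 4 of 6 brush border genes, by -2.74 ± 0.43 for Slc1a1 (adjusted p = 2.91e-05), -2.48 ± 0.70 for Slc15a1 (0.0127), -1.97 ± 0.37 for Slc36a1 (0.000268) and -1.51 ± 0.53 for Slc7a9 (0.0445). Slc6a19 (-2.04 ± 0.74, adjusted p = 0.0541) and Slc3a1 (-1.14 ± 0.52, 0.132) did not pass, and DESeq2 called 5 of the 6. The call for Slc7a9 was lost under 20 of 33 other settings, and the number called ran from 3 to 6 over mice left out in turn. Among basolateral carriers it was lower for Slc7a8 (-4.19 ± 0.56, adjusted p = 3.25e-06), Slc43a2 (-3.78 ± 0.38, 3.42e-08) and Slc7a7 (-1.62 ± 0.33, 0.000593). The log2 fold changes of the 3-day and 7-day comparisons rest on different mice.

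**Figure D3:**
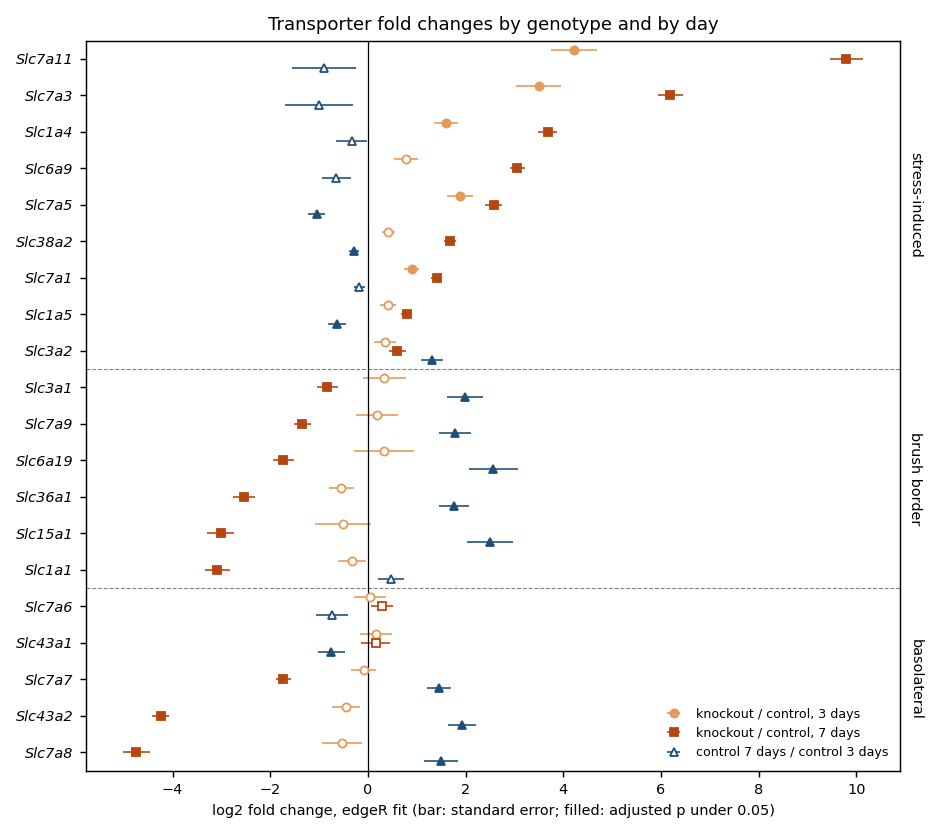
Log2 fold change (x axis) of the stress-induced, brush border and basolateral transporters, ordered by group along the y axis, for knockout against control at 3 and at 7 days and for controls of 7 against 3 days. Bars are standard errors of the edgeR fit and filled symbols have an adjusted p under 0.05. The 7-day knockout effect is positive for 9 stress-induced genes and negative for 6 brush border genes, and the control comparison is positive for all 6 of the latter.

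Genes that work with these transporters but fall outside the name rule moved likewise. Of 7 listed partners 6 were tested at 7 days and 6 fell, with a median log2 fold change of -2.90, where 18.8% of all genes tested fell. At 3 days 0 of 7 passed by edgeR or DESeq2, with 1 at an unadjusted p under 0.05. The imino acid carrier Slc6a20a was at 0.673 to 3.2 CPM (median 1.49) in 7-day knockouts against 135 to 307 CPM (median 213), a log2 fold change of -6.97 ± 0.28 (adjusted p = 1.91e-12). It was the partner with an unadjusted p under 0.05 at 3 days, and it fell once the 4 libraries high in acinar or stomach markers were left out (-1.77, adjusted p = 0.00362) and in the fit of all 26 libraries. Its neighbour and near copy Slc6a20b fell by 0.91 on the log2 scale, and reads shared by the pair may be split between them. Exons of Slc6a20a overlap those of Ccr9, Gm17120 and Gm17200, and exons of Slc6a20b overlap those of Sacm1l, all on the other strand. The other falls were -3.67 ± 0.23 for the dipeptidase Dpep1, -3.48 ± 0.23 for aminopeptidase N (Anpep), -2.33 ± 0.19 for the sodium-proton exchanger Slc9a3 and -1.10 ± 0.16 for the aromatic amino acid carrier Slc16a10. Cltrn had at most 6 counts in any 7-day control and was not tested at 7 days. In the controls 6 of 7 partners were higher at 7 than at 3 days, where 19.7% of all genes tested were.

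The heavy chains allow a comparison within each library that no scaling moves. The log2 ratio of Slc3a2 to Slc3a1 counts was 4.06 to 4.61 (median 4.46) in 7-day knockouts and 2.82 to 3.16 (median 2.97) in 7-day controls. The groups did not overlap, and the mean difference was 1.44 (two-sided exact permutation test over 924 arrangements, p = 0.00216, the smallest possible, adjusted over the 2 days 0.00433). At 3 days the ratio was 3.46 to 5.06 (median 3.63) in knockouts and 3.24 to 5.91 (median 3.61) in controls, and the mean difference of -0.16 did not pass (exact permutation p = 0.698). The highest ratio in each 3-day group belonged to knockout replicate 1 and control replicate 5, the 2 libraries lowest in enterocyte markers, and without control replicate 5 the difference was 0.17. Both heavy chains were higher in 7-day than in 3-day controls, Slc3a2 by 1.31 and Slc3a1 by 1.98 on the log2 scale.

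The contrast of the 2 lists per mouse is given as a description with no test. It is the mean log2 CPM of the stress-induced minus that of the 7 brush border genes. These include Slc6a14, which had 0 counts in every library and so enters at the floor. Its inclusion lowers the brush border mean and raises the contrast in every mouse. The contrast was 3.02 to 3.91 (median 3.16) in 7-day knockouts and -2.15 to -1.26 (median -1.59) in 7-day controls. At 3 days it was 1.40 to 3.01 (median 1.76) in knockouts and -0.67 to 2.09 (median 0.13) in controls, and the groups overlapped. The stress-induced mean alone was 6.81 to 7.11, 4.84 to 5.85, 3.76 to 4.37 and 3.52 to 4.09 in 7-day knockouts, 3-day knockouts, 3-day controls and 7-day controls. The brush border mean in the same order was 3.20 to 3.90, 1.83 to 4.21, 2.28 to 4.80 and 5.03 to 5.89, so that 7-day controls stood above the other 3 groups.

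**Figure D4:**
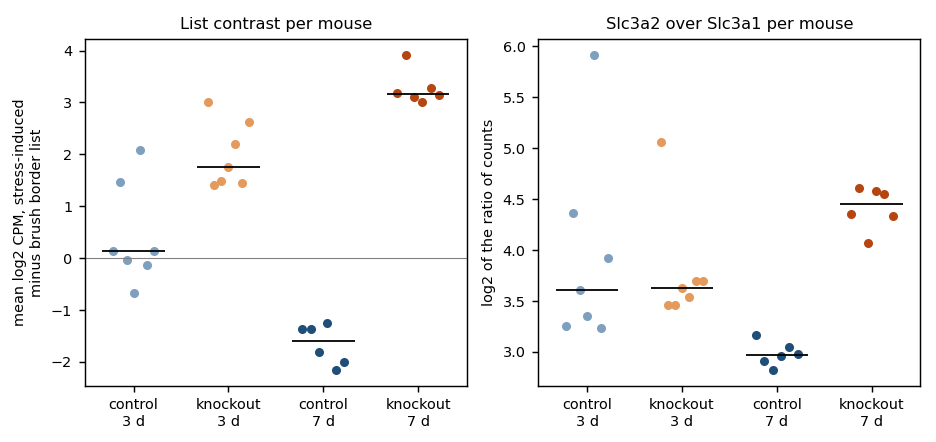
Left, mean log2 CPM of the 9 stress-induced minus that of the 7 brush border transporters in each mouse, Slc6a14 with 0 counts included. Right, log2 of the ratio of Slc3a2 to Slc3a1 counts in each mouse. Points are mice and bars are medians, by group along the x axis. On the left the 7-day groups lie apart (medians 3.16 and -1.59), and on the right they do as well (medians 4.46 and 2.97), while the 3-day groups overlap in both.

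Transporters of the lysosome, which return amino acids and peptides from protein breakdown to the cytosol, gave 0 of 6 calls at 3 days by edgeR or DESeq2, with Slc38a7 at an unadjusted p under 0.05. At 7 days 3 of 6 rose, where 19.7% of all genes tested rose. Slc38a7, a lysosomal glutamine exporter, was at 26.4 to 31.6 CPM (median 30.4) in knockouts against 7.96 to 11.5 CPM (median 8.42), a log2 fold change of 1.70 ± 0.12 (adjusted p = 1.48e-09). The arginine sensor Slc38a9 was at 30.1 to 36.6 CPM (median 33.6) against 20.2 to 27.3 CPM (median 23.9), a log2 fold change of 0.45 ± 0.10 (adjusted p = 0.00113). Both were higher in every knockout than in every control. Slc36a4 was at 4.31 to 6.95 CPM (median 5.56) against 2.86 to 5.4 CPM (median 3.61), and its rise of 0.54 ± 0.21 (adjusted p = 0.0494) was lost under 16 of 21 other settings, DESeq2 among them. Slc15a3, Slc15a4 and Slc7a14 did not pass.

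Of the 8 further SLC38 members, 6 were tested at 7 days, and 1 rose and 1 fell, where 19.7% and 18.8% of all genes tested did. Slc38a1, a glutamine importer of the same kind as Slc38a2, was at 358 to 466 CPM (median 409) in 7-day knockouts against 89 to 155 CPM (median 112), a log2 fold change of 1.75 ± 0.13 (adjusted p = 7.82e-09). The 7-day knockouts lay above all mice of the other 3 groups. At 3 days its log2 fold change was 0.31 ± 0.14 (adjusted p = 0.33), and the effect grew by 1.46 ± 0.20 between the days (adjusted p = 4.1e-06). Slc38a10 fell by 0.44 on the log2 scale. Slc38a5, singled out after its values were seen, reached 20.5 CPM in knockout replicate 2 of 3 days and 3.38 CPM in knockout replicate 4 of 7 days, which are the highest values of their groups and the 2 knockout libraries with over 10000 summed CPM of acinar markers. The controls were mixed. Replicate 2 of 3 days, also over 10000, had 8.12 CPM, but replicate 5 had 7.40 CPM with 345 summed acinar CPM. The highest 7-day control was replicate 2, at 1.80 CPM with 46.5 summed acinar CPM. Replicate 5 of 3 days and replicate 2 of 7 days were the controls high in stomach markers.

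Of the 4 further glutamate transporters of the SLC1 family 3 were tested at 7 days, and 2 fell, where 18.8% of all genes tested fell. These were Slc1a3 and Slc1a2, carriers of nerve and glia, and the third did not pass (log2 fold change 0.58). Slc1a3 (GLAST) was at 3.81 to 6.06 CPM (median 4.34) in 7-day knockouts against 10.8 to 26.1 CPM (median 21.6), a log2 fold change of -2.14 ± 0.22 (adjusted p = 3.7e-07). The knockouts lay below every mouse of the other 3 groups, and the 3-day log2 fold change was -0.43 ± 0.15 (adjusted p = 0.191). Slc1a2 (GLT-1) was at 0 to 0.533 CPM against 0.882 to 2.79 CPM at 7 days, on 7 counts in the 6 knockouts and 51 in the 6 controls. The ratio of these counts was 7.38-fold, with a 95% interval of 3.33 to 19.3 that covers counting error only, and the fit gave a fall with adjusted p = 0.000713. Without knockout replicate 1 of 3 days Slc1a2 also fell at 3 days (log2 fold change -1.43, adjusted p = 0.0406), since that library held 13.7 CPM and the next 3.31 CPM. The summed neuron and glia markers were 39.5 to 55.1 CPM in 7-day knockouts and 30.8 to 49.7 CPM in 7-day controls, and their part in these results was not tested.

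Of the 15 neurotransmitter, creatine and osmolyte carriers 8 were tested at 7 days, and 4 fell, where 18.8% of all genes tested fell. The serotonin transporter Slc6a4, which clears serotonin into enterocytes, was at 9.33 to 16.8 CPM (median 12.6) in 7-day knockouts against 30.5 to 57.3 CPM (median 42.6), a log2 fold change of -1.73 ± 0.17 (adjusted p = 1.87e-07). The creatine transporter Slc6a8 had a log2 fold change of -0.997 (adjusted p = 0.000298). Both were higher in 7-day than in 3-day controls, by 1.17 ± 0.23 and 2.42 ± 0.34, and neither overlapped between the genotypes at 7 days. The proline transporter Slc6a7 was at 1.04 to 2.67 CPM (median 1.41) against 0.675 to 4.28 CPM (median 3.79), a fall of -1.05 ± 0.36 (adjusted p = 0.0257) that was lost when any 1 of 3 mice was left out. The dopamine transporter Slc6a3 had 5 counts in the 7-day knockouts and 43 in the controls, a ratio of 8.71-fold (95% counting interval 3.46 to 28.2). At 3 days Slc6a3 was dropped by the filter and not tested, with 24 counts in the knockouts and 3 in the controls. The taurine transporter Slc6a6 had a log2 fold change of -0.26 ± 0.12 (adjusted p = 0.0912).

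Among the remaining 12 transporters 2 moved by the largest amounts outside the named roles. Slc43a3 (chr2:84936579-84958509), a purine base transporter, was at 85 to 110 CPM (median 93.4) in 7-day knockouts against 11.5 to 21.6 CPM (median 17), a log2 fold change of 2.49 ± 0.13 (adjusted p = 3e-11). At 3 days its groups overlapped fully with medians of 38.3 and 38.4 CPM, and the effect grew by 2.54 ± 0.26 (adjusted p = 5.67e-08). The 7-day knockouts lay above and the 7-day controls below all 3-day controls. Slc7a15 (chr12:8528483-8599066), a member of the SLC7 family, was at 1.39 to 2.67 CPM (median 2.15) against 66.3 to 128 CPM (median 112), a log2 fold change of -5.66 ± 0.21 (adjusted p = 6.61e-13). It had the largest fall of the 50 transporters tested, and its controls rose from a 3-day median of 18.6 CPM, a log2 change of 2.52 ± 0.42 (adjusted p = 0.000247). Slc7a2, a cationic amino acid carrier, was at 4.72 to 13.5 CPM (median 9.47) against 3.94 to 6.58 CPM (median 5.72), a log2 fold change of 0.74 ± 0.22 (adjusted p = 0.0109), and Slc7a4 fell by 0.88 on the log2 scale.

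Not all 66 transporters could be followed in this tissue. No library had a count for 3 of them (Slc6a14, Slc6a16 and Slc7a12), 11 had at most 3 counts in every library, and 47 had a mean of at least 1 CPM in some group. The filter on zero counts kept 49 at 3 days, 50 at 7 days, 47 in the comparison of effects and 48 between the controls. A gene dropped by the filter has no test, which does not mean that it was unchanged. Slc6a3, dropped at 3 days, had 24 counts in the knockouts and 3 in the controls. The ratio was 8.24-fold, with a counting interval of 2.50 to 42.8. Dropped between the controls as well, it had 43 counts at 7 days and 3 at 3 days (17.9-fold, 5.72 to 90.0). For Slc6a13, also dropped at 3 days, the controls were higher and the interval held 1 (2.67-fold, 0.791 to 11.5). These intervals leave out the spread between mice.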

How the data were processed

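RNA of the proximal small intestine of 26 mice was sequenced by 3' tag sequencing (QuantSeq). The authors trimmed reads with cutadapt 2.10, aligned them with Subread to GRCm38 and counted them with featureCounts 2.0.1. Reads overlapping several genes were divided among them, so the deposited values are estimated counts per gene, of which 95% were whole, and these were rounded for the tests. A strand setting was not stated. The deposited CPM values are the same counts over the library total and were not used.

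Groups followed the labels. Genes at 0 in most libraries of either group compared were left out, as in the study. Knockout and control were compared within each day, controls between days, and the change of the knockout effect in 1 model, by edgeR 4.0.16 (R 4.3.3), with TMM scaling, its quasi-likelihood F test and adjusted p-values (Benjamini-Hochberg) over all genes tested. DESeq2 1.42.0, which the study used, was an alternative, as were other scaling, filters, marker covariates, a replicate block and leaving out each mouse. The heavy chain ratio was taken with 0.5 counts added and compared by exact permutation. The scripts were tested on simulated data. Genes were named if they belonged to the stress-induced, brush border or basolateral list, or were among the 6 largest rises or 6 largest falls of the other transporters called at 7 days, and members singled out to account for a count are given besides. The members and lists were chosen with earlier results of these data known. Controls were littermates without the Cre transgene, per the study's methods, but no label ties a mouse to its litter, so litter was not modelled. The deleted gene and 1 absorption partner are not reported here. Intervals cover counting error only.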

Additional observations from a re-analysis of the deposited data

Results flagged for a closer look

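In 19 of the 164 groups of a named gene, 1 mouse stood far from the others of its group by Dixon's criterion, where chance gives about 1 in 20, or 8.2 groups. The 3-day control replicate 5 had Slc1a5 at 141 CPM, the next mouse being at 84.1 and Slc38a1 at 229 CPM, the next mouse being at 159. The 7-day knockout replicate 1 had Slc1a5 at 70.7 CPM, the next mouse being at 85.3, Slc6a3 at 0.616 CPM, the next mouse being at 0.224, Slc16a10 at 95.8 CPM, the next mouse being at 60.1 and Cltrn at 0.205 CPM, the next mouse being at 0. The 7-day control replicate 2 had Slc1a5 at 64.1 CPM, the next mouse being at 49, Slc7a1 at 67.5 CPM, the next mouse being at 85.7 and Slc6a7 at 0.675 CPM, the next mouse being at 3.53. The 3-day knockout replicate 1 had Slc7a1 at 111 CPM, the next mouse being at 181, Slc7a7 at 17.5 CPM, the next mouse being at 41.5, Slc1a2 at 13.7 CPM, the next mouse being at 3.31 and Slc16a10 at 13 CPM, the next mouse being at 41.8. The 7-day knockout replicate 4 had Slc1a1 at 5.46 CPM, the next mouse being at 2.88 and Slc7a8 at 10.1 CPM, the next mouse being at 5.54. The 3-day control replicate 4 had Slc6a19 at 228 CPM, the next mouse being at 74.3. The 7-day knockout replicate 2 had Slc6a19 at 58 CPM, the next mouse being at 122. The 7-day control replicate 3 had Slc15a1 at 312 CPM, the next mouse being at 169. The 7-day knockout replicate 3 had Slc6a20b at 19.8 CPM, the next mouse being at 15.6.

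The knockout effect differed between 3 and 7 days, by the edgeR test of the difference itself, for 26 of the 39 named genes, where 18.4% of all genes tested passed. Some of the named genes were picked as the largest rises and falls at 7 days, so the count is a description. The log2 effect was higher at 7 days, with the difference and its adjusted p, by 2.09 for Slc1a4 (3.96e-05), 2.30 for Slc6a9 (2.94e-06), 0.53 for Slc7a1 (0.0481), 2.73 for Slc7a3 (0.00477) and 5.60 for Slc7a11 (9.93e-07). Likewise it was higher at 7 days, with the difference and its adjusted p, by 1.28 for Slc38a2 (3.6e-06), 2.54 for Slc43a3 (5.67e-08), 1.46 for Slc38a1 (4.1e-06), 1.24 for Slc38a7 (0.00016) and 0.50 for Slc38a9 (0.0379). Likewise it was higher at 7 days, with the difference and its adjusted p, by 0.95 for Asns (0.0051). The log2 effect was lower at 7 days, with the difference and its adjusted p, by -2.74 for Slc1a1 (2.91e-05), -1.51 for Slc7a9 (0.0445), -2.48 for Slc15a1 (0.0127), -1.97 for Slc36a1 (0.000268) and -1.62 for Slc7a7 (0.000593). Likewise it was lower at 7 days, with the difference and its adjusted p, by -4.19 for Slc7a8 (3.25e-06), -3.78 for Slc43a2 (3.42e-08), -5.00 for Slc7a15 (5.17e-06), -1.69 for Slc1a3 (2.84e-05) and -1.79 for Slc6a4 (0.000624). Likewise it was lower at 7 days, with the difference and its adjusted p, by -5.53 for Slc6a20a (7.98e-07), -1.37 for Slc16a10 (0.0199), -3.16 for Anpep (0.000293) and -3.53 for Dpep1 (9.28e-07). Likewise it was lower at 7 days, with the difference and its adjusted p, by -2.34 for Slc9a3 (0.000269).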

How the results depend on the processing

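Of the counts and ratios under other settings 607 held, which for a count means within 1.5 times the reported one. Of the values of single genes 3596 kept their direction and side of the threshold, with 120 calls lost, 57 gained and 65 changes of sign, none in a call. At 3 days the higher transporters numbered 8, all of the stress-induced list (8), and the lower ones 1, without the libraries high in acinar or stomach markers, a setting chosen after seeing the data. Leaving out 1 mouse gave 0 to 1 lower, the 1 being Slc1a2 without knockout replicate 1. Over all genes 297 were called at 3 days, and 769 by DESeq2, 810 in the fit of all 26 libraries, 510 without those libraries, 129 with at least a 2-fold change and 99 with the replicate block. The heavy chain difference at 3 days ranged from -0.37 to 0.17 over mice left out and was 0.13 without those libraries.

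Same-numbered knockout and control mice did not deviate together (r from -0.357 to 0.430 at 3 days and -0.241 to 0.417 at 7 days, over 0.1 in 2 of 7 and 2 of 6 pairs), so the numbers were not taken to pair mice. At each day 2 knockout and 1 control mice correlated best with their own number. With the replicate block 4 transporters rose and 0 fell at 3 days, 14 rose and 19 fell at 7 days, and the heavy chain difference of 1.44 at 7 days had an adjusted p of 0.0625 by exact sign flips, the smallest that 6 pairs allow, so that test could not pass. The transporter lost with the block at 3 days was Slc7a1.

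Of the log2 values that changed sign, the largest as reported were those of 3 days for Slc3a1 (0.336), Slc6a19 (0.329), Slc16a10 (0.290) and Slc7a9 (0.183). After the change of sign all values were near 0. With marker covariates they were -0.00865 for Slc3a1, -0.0522 for Slc6a19, -0.141 for Slc7a9, 0.0821 for Slc43a3, 0.00727 for Slc7a2, -0.0933 for Slc6a4, -0.0202 for Slc16a10 and -0.115 for Slc9a3 at 3 days, and -0.00747 for Slc38a7 between controls. Without the libraries high in acinar or stomach markers they were 0.128 for Slc43a3, 0.151 for Slc38a9 and -0.0599 for Slc6a4 at 3 days, and -0.114 for Slc43a1 in the change of effect, and -0.0737 for Slc38a7 between controls. With the replicate block they were -0.0481 for Slc9a3 at 3 days. By DESeq2 they were -0.0122 for Slc43a1 in the change of effect. With DESeq2 size factors they were -0.017 for Slc43a1 in the change of effect. With filterByExpr they were -0.00617 for Slc43a1 in the change of effect, and -0.0261 for Slc38a7 between controls. Over mice left out in turn the range at 3 days was -0.131 to 0.229 for Slc7a6, -0.202 to 0.0512 for Slc7a7, -0.0508 to 0.297 for Slc43a1, -0.154 to 0.096 for Slc43a3, -0.187 to 0.0164 for Slc7a2, -0.0806 to 0.0537 for Slc38a9, -0.0361 to 0.23 for Slc6a4, -0.296 to 0.0924 for Dpep1 and -0.146 to 0.232 for Slc9a3. Over mice left out in turn the range at 7 days was -0.0331 to 0.345 for Slc43a1. Over mice left out in turn the range in the change of effect was -0.185 to 0.236 for Slc43a1. Over mice left out in turn the range between controls was -0.0278 to 0.119 for Slc38a7 and -0.328 to 0.0467 for Slc6a7. The cause was not tested. Depth limits genes under 3 counts per library, and leaves Slc1a2 and Slc6a3 resting on few counts.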
